A study of Rattus norvegicus with 16 samples.

Results

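A set of 10 genes of the NRF2 antioxidant response was followed in the glomeruli of rats with a toxin-induced nephrotic syndrome. They were chosen by name: Nfe2l2, Keap1, Hmox1, Nqo1, Gclc, Gclm, Txnrd1, Srxn1, Gpx1 and Sod2. Of these 10 genes, 9 are among the 13222 genes of the expression table, and Srxn1 is not analysed here. Glomeruli, the filtration units of the kidney, were sieved on day 11 from male Wistar rats of about 175 g, and poly(A) RNA was sequenced in stranded libraries. There were 4 groups of 4 rats. Control rats (Ctl) are labelled healthy. PAN rats received an intravenous injection of puromycin aminonucleoside (PAN), which injures podocytes, whose interlocking processes wrap the glomerular capillaries. The other 2 groups received PAN and, daily by gavage, either pioglitazone (PAN_Pio), an agonist of the nuclear receptor PPARγ, or GQ-16 (PAN_GQ-16), a partial agonist of PPARγ. A sham vehicle was gavaged as well, and the labels do not say to which groups, nor whether control rats were injected. They give no dose, litter or pairing. Rats are numbered only to name them within a group.

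NRF2, the product of Nfe2l2, is a transcription factor held at low levels by KEAP1, which hands it to a ubiquitin ligase for degradation. Oxidants and electrophiles modify cysteines of KEAP1, so that NRF2 accumulates, pairs with small MAF proteins and binds antioxidant response elements in the control regions of its targets. Much of the control of NRF2 is therefore exerted on the protein, which mRNA levels do not measure. Its targets make and recycle glutathione and thioredoxin, break down heme and reduce quinones. PAN injury of podocytes has long been linked to reactive oxygen species.

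The core of the antioxidant response element was looked for in the promoters of these genes, because it is the element that NRF2 binds. Promoters were taken from RefSeq (rat assembly GRCr8) as the 250 bases before and 50 after each start. They were available for 9 of the 10 genes, all but Hmox1. The letters TGACNNNGC, searched on both strands, lie in 12.1% of all 33469 such promoters. They lie in 4 of the 10 promoters listed for these 9 genes, those of Gclm, Txnrd1, Sod2 and Nfe2l2. Each is given 5′ to 3′ on the strand of the gene, with the element in capitals. In Gclm, Txnrd1 and Sod2 the element reads on the opposite strand.
Gclm: tgcggtttctGCTTAGTCAttgtcttcca
Txnrd1: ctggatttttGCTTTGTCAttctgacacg
Sod2: ggcgctgccgGCAGGGTCAgcgcctagct
Nfe2l2: gactagccatTGACGCCGCctc
The element begins 172 bases before the start of Gclm (chr2:213031953-213031981, plus strand) and 78 bases before that of Txnrd1 (chr7:22755964-22755992, minus strand). It begins 35 bases before the start of Sod2 (chr1:50050185-50050213, minus strand) and at base 39 of the Nfe2l2 transcript (chr3:81028950-81028971, minus strand). The related letters TGANTCA lie in 7.33% of promoters and, among these genes, in that of Srxn1 alone. Matches of these 2 patterns can share bases, but they did not do so in any promoter of this group. The windows are short, and many known response elements lie farther from the start, so a match or its absence describes these letters in this window only.

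Values are CPM, the reads of a gene relative to all reads of its library, and library totals ran from 13351137 to 21977663 reads in the listed genes. At that depth Hmox1 rested on 47 to 284 reads a library and Nqo1 on 40 to 150, while the other 7 genes had at least 390 reads in every library. Mitochondrial transcripts took 26.3% ± 11.8 of reads in control and 9.24% ± 2.20 in PAN rats (SD, n = 4), a difference of -17.1 percentage points (exact permutation test, two-sided, p = 0.0286, the smallest that 4 against 4 allows). From control to PAN the typical gene moved by 0.28 on the log2 scale in the values as deposited (median over all 13222), and by -0.003 after median-ratio scaling, which sets the typical gene equal between libraries. Changes of the 9 genes against control are therefore given on both scales. For some genes of the wider pathway only the change as deposited is given. A log2 change is a difference of group means of log2(CPM + 1), a scale that understates the change of genes at a few CPM, such as Hmox1 and Nqo1, and its standard error (SE) pools the spread of all 4 groups. Libraries numbered 25 or higher in the titles were 3 of 4 in PAN, 0 of 4 in control and 1 of 4 in each drug group. Library number thus moves with the group in PAN against control, and values with it as a covariate are given where they change a count or a sign. The podocyte marker nephrin was abundant in all rats (Nphs1 357.5 to 3553 CPM). Markers of the proximal tubule, which sieving leaves in part, were abundant too (Slc34a1 830.1 to 3481 CPM, Lrp2 616.3 to 2701 CPM). These are bulk samples, in which a change in the number of cells of a type and a change in RNA per cell cannot be told apart.

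**Figure D1:**
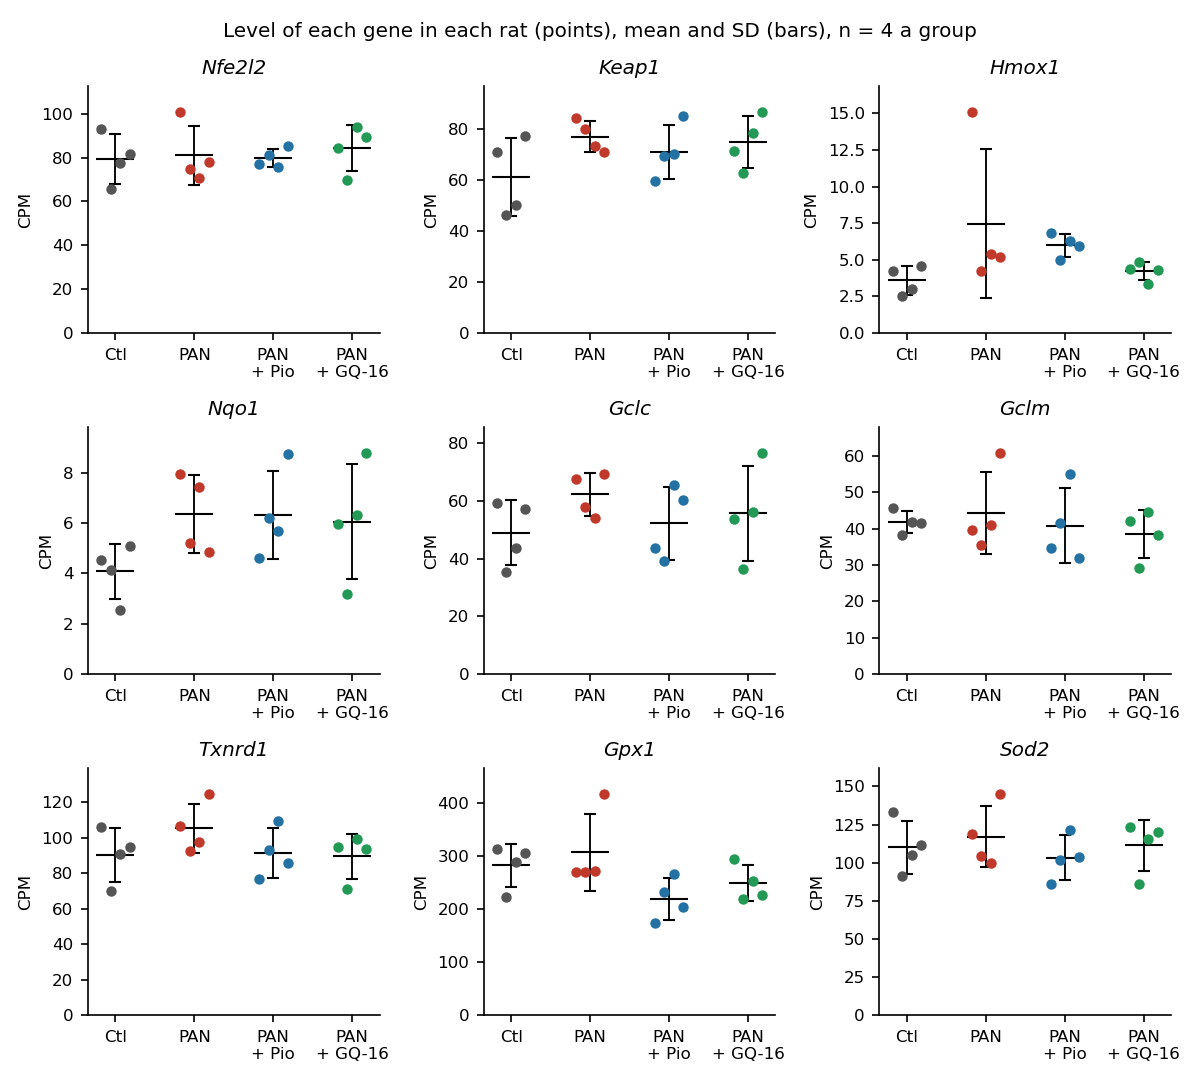
Level of each of the 9 genes in CPM (vertical axis, from 0) in every rat (points) of the 4 groups, with the mean and SD (bars, n = 4). The groups overlap in most panels; Hmox1 in 1 PAN rat, at 15.1 CPM, and Gpx1 in another, at 416 CPM, stand apart from the other 3 rats of the group.

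The first comparison, PAN against control, asks how the injury moves these genes. None of the 9 genes passed the test (limma, Benjamini-Hochberg adjusted p under 0.05 over all genes), whereas 22.3% of all genes did (21.7% higher and 0.522% lower; 7.12% and 1.51% after median-ratio scaling). All 9 were above control on the log2 scale as deposited, with a median change of 0.23, beside 0.28 for all genes. After median-ratio scaling 4 were above and 5 below control, with a median of -0.07. Heme oxygenase and quinone reductase had the largest values, while the regulator Nfe2l2 had the smallest. At an unadjusted p under 0.05 there were 3 of 9, namely Keap1, Hmox1 and Nqo1, beside 5562 of all genes. After median-ratio scaling none of these 3 was, and Nfe2l2, lower in PAN, was the only one of the 9, beside 3513 of all genes. In none of the 9 were the 4 PAN rats clear of the 4 control rats, a separation seen for 23.3% of all genes.

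Nfe2l2 (ENSRNOG00000001548), which encodes NRF2 itself, was at 93.2, 65.6, 77.7 and 81.7 CPM in the control rats and at 101, 74.8, 70.7 and 78.2 CPM in the PAN rats. It was at 77.0, 81.2, 75.9 and 85.2 CPM with pioglitazone and at 84.2, 69.6, 94.1 and 89.4 CPM with GQ-16. All 4 groups overlap, and their means lie within 1.06-fold of each other, in the order control, pioglitazone, PAN and GQ-16. The PAN mean was 81.1 ± 13.4 CPM and the control mean 79.5 ± 11.4 CPM (SD, n = 4), a log2 change of 0.02 (limma, SE 0.14, adjusted p 0.895). After median-ratio scaling the sign turned: Nfe2l2 was 73.4 ± 9.54 CPM in PAN against 88.6 ± 5.44 CPM in control rats (SD, n = 4), and its log2 change was -0.27 (95% interval -0.45 to -0.10, limma adjusted p 0.0499). It was then the only gene of the 9 to pass, against 8.63% of all genes, and its p lay just under the threshold. A voom fit on the recovered reads gave -0.28 (limma adjusted p 0.0485), but it used the same scaling and is not an independent check. With library number as a covariate, the change in the values as deposited was -0.05 (limma adjusted p 0.874). After median-ratio scaling the highest PAN rat, at 86.6 CPM, was still above the lowest control rat, at 81.6 CPM. With pioglitazone the scaled level was 76.8 ± 3.60 CPM and with GQ-16 83.1 ± 2.02 CPM (SD, n = 4), so that all pioglitazone rats lay below all control rats and below all GQ-16 rats, with no call in either comparison (limma adjusted p 0.177 and 0.753). Of all genes 4.67% were separated in this way below control, and 1.29% were separated with GQ-16 above pioglitazone.

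Keap1 (ENSRNOG00000020878), the inhibitor of NRF2, was at 70.8, 46.2, 50.1 and 77.3 CPM in control and at 84.0, 79.7, 73.1 and 70.8 CPM in PAN rats. The control rats fall into a low and a high pair. Of the high pair, control rat 4 lay within the PAN range and control rat 1 just below it (70.76 against 70.77 CPM in PAN rat 4). Keap1 averaged 76.9 ± 6.07 CPM with PAN against 61.1 ± 15.3 CPM without (SD, n = 4), so that its log2 change was 0.36 (limma, SE 0.16, adjusted p 0.109) and 0.06 after median-ratio scaling (limma adjusted p 0.657). Without control rat 4 Keap1 passed the test, with a log2 change of 0.48 (limma adjusted p 0.0393), and without control rat 2 the change was 0.24 (limma adjusted p 0.333). Levels with pioglitazone, 59.5, 69.2, 70.05 and 84.9 CPM, and with GQ-16, 71.2, 62.7, 78.5 and 86.3 CPM, overlapped those of both other groups.

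Hmox1 (ENSRNOG00000014117) encodes heme oxygenase 1, the inducible enzyme that opens heme to biliverdin, iron and carbon monoxide. It was at 4.23, 2.53, 3.004 and 4.60 CPM in control and at 15.1, 4.26, 5.38 and 5.17 CPM in PAN rats. PAN rat 1 stood far above the other 3, of which the lowest was within the control range. The means were 3.59 ± 0.984 CPM and 7.47 ± 5.09 CPM (SD, n = 4), a log2 change of 0.75 (limma, SE 0.27, adjusted p 0.0564) and 0.51 after median-ratio scaling (limma adjusted p 0.219). Without PAN rat 1 the change was 0.39 (limma adjusted p 0.155), which is a smaller value by more than 1.5 times. Without any one of control rats 1 and 4 and PAN rats 2 and 4, Hmox1 passed the test, with log2 changes from 0.82 to 0.93 and limma adjusted p from 0.0423 to 0.048.

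With pioglitazone Hmox1 was at 6.80, 4.96, 6.27 and 5.97 CPM, and with GQ-16 at 4.38, 4.83, 3.35 and 4.31 CPM. All 4 pioglitazone rats were above all control rats and above all GQ-16 rats, while the GQ-16 rats lay within or just above the control range. Of all genes 14.1% separated pioglitazone from control rats and 1.94% had all GQ-16 rats below pioglitazone rats. After median-ratio scaling the pioglitazone and GQ-16 rats overlapped. The order of the means was control, GQ-16, pioglitazone and PAN on both scales, spanning 2.08-fold as deposited and 1.70-fold after median-ratio scaling. No neighbours in that order passed a test. By medians PAN, at 5.28 CPM, was below pioglitazone, at 6.12 CPM, so that the first place of PAN rests on PAN rat 1.

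Nqo1 (ENSRNOG00000012772) encodes the quinone reductase that is the classical reporter of NRF2 activity. It was at 4.55, 4.13, 2.56 and 5.11 CPM in control and at 7.97, 5.20, 7.44 and 4.85 CPM in PAN rats. Only the lowest PAN rat fell inside the control range. The means were 4.09 ± 1.09 CPM and 6.36 ± 1.57 CPM (SD, n = 4), a log2 change of 0.54 (limma, SE 0.25, adjusted p 0.117) and 0.29 after median-ratio scaling (limma adjusted p 0.374). The drug groups spread widely, from 4.62 to 8.74 CPM with pioglitazone and from 3.18 to 8.77 CPM with GQ-16, and each covered the whole PAN range.

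Gclc (ENSRNOG00000006302) and Gclm (ENSRNOG00000013409) encode the catalytic and the modifier subunit of glutamate-cysteine ligase, the rate-limiting step of glutathione synthesis. Gclc was at 59.3, 35.4, 43.7 and 57.1 CPM in control and at 67.7, 58.0, 53.9 and 69.3 CPM in PAN rats. Its log2 change was 0.36 (limma, SE 0.22, adjusted p 0.211) and 0.07 after median-ratio scaling. With single rats left out it ran from 0.22, without control rat 2, to 0.46, without control rat 1. Gclm was at 45.6, 38.4, 42.0 and 41.5 CPM in control and at 39.6, 35.5, 41.2 and 60.7 CPM in PAN rats. For Gclm 3 PAN rats lay within or below the control range, and PAN rat 4 was the highest of all 16 rats. Its log2 change of 0.05 (limma, SE 0.18, adjusted p 0.84) became -0.25 after median-ratio scaling (limma adjusted p 0.394) and -0.11 without PAN rat 4. The subunits thus had different values, but neither passed the test and the difference between them was not tested. In the drug groups Gclc ran from 39.3 to 65.3 CPM with pioglitazone and from 36.4 to 76.4 CPM with GQ-16. Gclm ran from 31.8 to 55.0 CPM with pioglitazone and from 29.2 to 44.5 CPM with GQ-16. For both subunits all 4 groups overlap, and their group means span 1.27-fold for Gclc and 1.15-fold for Gclm.

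Gpx1 (ENSRNOG00000048812), the selenoenzyme that spends glutathione on hydrogen peroxide, was at 313, 223, 289 and 305 CPM in control and at 270, 270, 272 and 416 CPM in PAN rats. Of the PAN rats 3 are nearly equal and lie among the control rats, and PAN rat 4 is the highest of all 16. The means were 283 ± 40.8 CPM and 307 ± 72.8 CPM (SD, n = 4), a log2 change of 0.11 (limma, SE 0.18, adjusted p 0.65) that became -0.20 after median-ratio scaling. Without PAN rat 4 it was -0.05.

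Txnrd1 (ENSRNOG00000009088), the cytosolic thioredoxin reductase, was at 106, 69.8, 90.7 and 94.7 CPM in control and at 106, 92.7, 97.8 and 124 CPM in PAN rats. Its log2 change was 0.23 (limma, SE 0.15, adjusted p 0.26), and -0.07 after median-ratio scaling. Leaving out one rat at a time gave Txnrd1 changes from 0.11, without control rat 2, to 0.31, without control rat 1. Sod2 (ENSRNOG00000019048), the mitochondrial manganese superoxide dismutase, was at 133, 91.0, 105 and 111 CPM in control and at 119, 104, 99.9 and 145 CPM in PAN rats. For both genes the ranges overlap and PAN rat 4 is the highest of all 16 rats. The log2 change of Sod2 was 0.08 (limma, SE 0.16, adjusted p 0.688), and -0.22 after median-ratio scaling. With pioglitazone Txnrd1 ran from 76.5 to 110 CPM and Sod2 from 85.8 to 122 CPM. With GQ-16 Txnrd1 ran from 70.8 to 99.1 CPM and Sod2 from 86.2 to 123 CPM. The drug groups overlap control and PAN for both genes, whose group means span 1.18-fold and 1.13-fold.

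**Figure D2:**
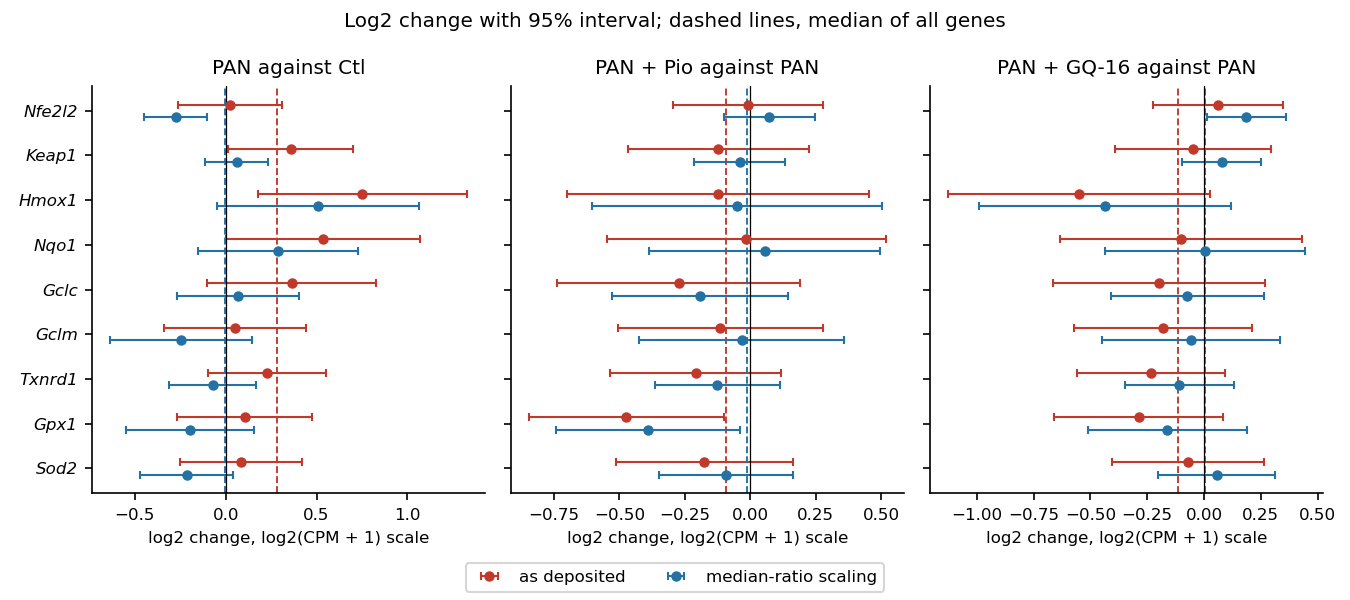
Log2 change of each gene (points) with its 95% interval (bars) for PAN against control and for each drug group against PAN, as deposited (red) and after median-ratio scaling (blue); dashed lines mark the median of all genes. Against control the points of Hmox1, Nqo1, Keap1 and Gclc lie right of 0 on both scales, and those of Nfe2l2, Gclm, Txnrd1, Gpx1 and Sod2 cross to the left with the scaling.

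The wider pathway, 83 genes of the 95 in 8 lists around the NRF2 response, were counted in the same way. In PAN against control 19 of the 83 rose and none fell, a share close to the 21.7% called higher among all genes, and the median change was 0.24 beside 0.28 for all genes. After median-ratio scaling 7 rose and none fell, beside 7.12% and 1.51% of all genes, with a median of -0.06. Those 7 were Nfe2l1, Mafk, Gpx8, Glrx, Gpx7, Prdx4 and Pir, and the voom fit, with the same scaling, also called 7. Without control rat 2 or without control rat 3 the count fell from 19 to 4, without PAN rat 1 to 5 and without PAN rat 2 to 10. The count over all genes fell along with it, from 2943 to 860, 838, 1049 and 1317 in that order. With library number as a covariate it was 2, Prdx4 and Pir, beside 393 of all 13222 genes.

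Among the 11 genes that control NRF2 or share its elements, 3 rose in PAN, a share near that of all genes (21.7%). Nfe2l1, the gene of the related factor NRF1, was at 304, 123, 131 and 254 CPM in control and at 499, 451, 443 and 414 CPM in PAN rats. All 4 PAN rats were above all control rats, a separation that 23.3% of all genes showed in either direction. The log2 change of Nfe2l1 was 1.26 (limma, SE 0.33, adjusted p 0.017) and 0.95 after median-ratio scaling. Mafk, one of the small MAF partners of NRF2, rose by 0.63 (limma adjusted p 0.0135) and by 0.33 after median-ratio scaling. Sqstm1, whose product p62 binds KEAP1 and takes it to autophagy, rose from 290 ± 47.3 to 395 ± 9.85 CPM (SD, n = 4), a log2 change of 0.46 (limma adjusted p 0.0356) that was 0.15 and no longer called after median-ratio scaling. The other 8 genes, which include the ligase subunits Cul3 (0.11) and Rbx1 (0.25) and the repressor Bach1 (0.02), did not pass.

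Of 20 glutathione genes 6 rose, beside 21.7% of all genes: Gpx8, Glrx, Gpx7, Gstp1, Glrx2 and Glo1. After median-ratio scaling the last 3 were no longer called. Gpx8 and Gpx7 encode peroxidases of the endoplasmic reticulum. Gpx8 was at 15.8, 6.64, 5.03 and 9.46 CPM in control and at 32.02, 18.8, 20.7 and 19.1 CPM in PAN rats. Gpx7 was at 21.0, 14.6, 16.9 and 23.4 CPM in control and at 34.3, 37.8, 31.3 and 27.9 CPM in PAN rats. Neither gene overlapped between the groups, which in either direction was so for 23.3% of all genes. The log2 changes of Gpx8 and Gpx7 were 1.29 (limma, SE 0.34, adjusted p 0.0179) and 0.77 (limma, SE 0.15, adjusted p 0.00294). Glrx, the cytosolic glutaredoxin, rose from 6.70 ± 2.30 to 14.1 ± 2.77 CPM (SD, n = 4), a log2 change of 1.001 (limma adjusted p 0.00918).

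Of 13 thioredoxin and peroxiredoxin genes 2 rose, again beside 21.7% of all genes. Prdx4, the peroxiredoxin of the endoplasmic reticulum, was at 14.4, 11.3, 12.5 and 15.2 CPM in control and at 34.7, 27.1, 21.9 and 20.5 CPM in PAN rats. Every PAN rat was above every control rat, a separation that 23.3% of all genes showed in either direction. The log2 change of Prdx4 was 0.89 (limma, SE 0.15, adjusted p 0.0014) and 0.61 after median-ratio scaling. The cytosolic Prdx2 rose by 0.38 (limma adjusted p 0.0354), a value that was 0.08 after median-ratio scaling and no longer called. Pir, whose product pirin is an iron-binding nuclear protein and whose gene is a known NRF2 target, was 1 of 3 genes to rise among 11 of quinone, carbonyl and xenobiotic handling, a share near the 21.7% of all genes. It was at 6.33, 5.39, 4.21 and 5.999 CPM in control and at 11.7, 9.97, 9.60 and 10.3 CPM in PAN rats, a log2 change of 0.82 (limma, SE 0.13, adjusted p 0.00118) and 0.56 after median-ratio scaling. Glrx, Gpx7, Prdx4 and Pir each passed when any one of the 8 rats was left out, with limma adjusted p of at most 0.0434, 0.0149, 0.00773 and 0.00582.

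Further single genes rose as deposited but not after median-ratio scaling. In the same list as Pir these were Akr1b1, the aldose reductase gene, by 0.61 (limma adjusted p 0.021; 0.31 after scaling) and the transporter gene Abcc3 by 0.58 (limma adjusted p 0.0181; 0.29 after scaling). Pon2, an antioxidant lactonase gene, rose by 0.52 (limma adjusted p 0.0187), 1 of 6 genes that remove superoxide and peroxide, beside 21.7% of all genes. After scaling the value for Pon2 was 0.22. The calls of Nfe2l1, Mafk, Sqstm1, Gpx8, Prdx2, Akr1b1, Abcc3 and Pon2 were each lost without control rat 2 and without control rat 3, and those of all but Mafk also without PAN rat 1.

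Slc48a1, the gene of the heme transporter HRG1, rose as 1 of 8 heme and iron genes, beside 21.7% of all genes. It was at 380, 65.7, 63.1 and 157 CPM in control and at 580, 477, 449 and 414 CPM in PAN rats. Control rat 1 lay close to the PAN rats and far above the other control rats. The log2 change was 1.92 (limma, SE 0.55, adjusted p 0.0258), and 1.62 after median-ratio scaling (limma adjusted p 0.0536). Without control rat 2, control rat 3, PAN rat 1 or PAN rat 2 it did not pass, at a limma adjusted p of at most 0.106. Summed podocyte markers were 8870, 2179, 2189 and 4264 CPM in the same control rats and 10443, 9306, 8161 and 6958 CPM in the PAN rats. In every group the rat with the highest podocyte sum also had the highest Slc48a1 and the highest Nfe2l1; the part of podocyte content in these rises was not tested. The podocyte sums of PAN and control rats had an exact permutation p of 0.0857 (two-sided). Of 10 podocyte markers 3 were called higher in PAN and none lower, beside 21.7% and 0.522% of all genes.

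Of 8 genes that produce superoxide and peroxide 2 rose, a share near that of all genes (21.7%), and both encode parts of the phagocyte oxidase. Cybb, its catalytic subunit, was at 35.0, 27.6, 23.8 and 41.9 CPM in control and at 136, 53.7, 47.1 and 39.3 CPM in PAN rats. The log2 change was 0.93 (limma adjusted p 0.0496), and 0.64 after median-ratio scaling without a call. Ncf4, a cytosolic subunit, rose by 0.76 (limma adjusted p 0.0423), and was 0.50 after scaling without a call. Without PAN rat 1 the changes were 0.55 for Cybb (limma adjusted p 0.155) and 0.48 for Ncf4 (limma adjusted p 0.139), neither of them called. Both calls were also lost without control rat 2, control rat 3, PAN rat 2 or PAN rat 3. PAN rat 1 was the highest of all 16 rats for both genes, as it was for Hmox1. Summed macrophage and leukocyte markers ran from 519 to 900 CPM in control and from 862 to 2060 CPM in PAN rats, PAN rat 1 having the highest sum. Of the 13 such markers listed, 9 were called higher in PAN and none lower, beside 21.7% and 0.522% of all genes. The part of these markers in the values of Cybb, Ncf4 and Hmox1 was not tested.

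**Figure D3:**
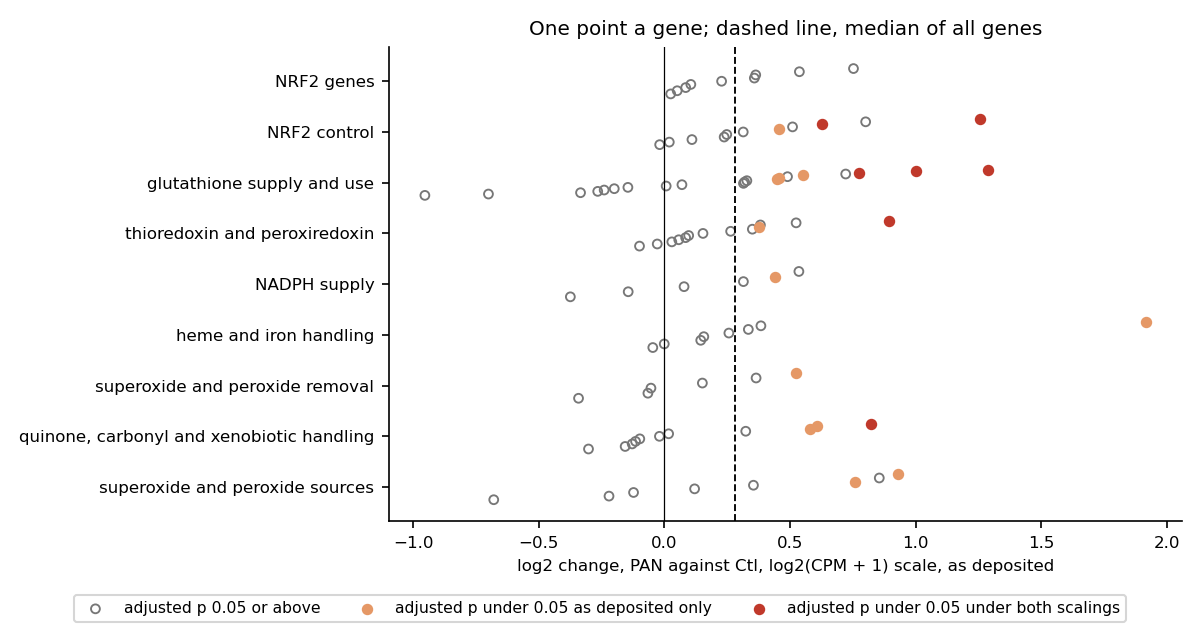
Log2 change of each gene, PAN against control as deposited (horizontal axis), with 1 row for the 9 NRF2 genes and 1 for each of the 8 pathway lists; filled points passed the test, in dark red under both scalings. The dashed line marks the median of all genes, 0.28, and no point of the top row is filled.

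The second pair of comparisons asks whether either PPARγ agonist moved these genes in injured glomeruli. Both drug groups were set against the same PAN rats, so their values are not independent of each other. With pioglitazone none of the 9 genes passed, beside 0% of all genes. For all genes the count at an unadjusted p under 0.05 was 495, voom also called 0, and 1 of the 9 genes, Gpx1, was under that value. All 9 were below PAN as deposited, with a median of -0.13 beside -0.09 for all genes, and 7 were below after median-ratio scaling. With GQ-16 none of the 9 passed, beside 0.0151% of all genes, none was under an unadjusted p of 0.05, and voom called 0. Of the 9, 8 were below PAN, with a median of -0.18 beside -0.11 for all genes, and 5 after median-ratio scaling.

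Gpx1 had the largest value with pioglitazone, at 174, 233, 267 and 204 CPM against 270, 270, 272 and 416 CPM in PAN rats. The highest pioglitazone rat was just below the lowest PAN rat, a separation downward seen for 2.36% of all genes. The log2 change was -0.47 (95% interval -0.85 to -0.10, unadjusted p 0.0158, limma adjusted p 0.916). It was -0.32 without PAN rat 4 and -0.39 after median-ratio scaling, where the rats overlapped. With GQ-16 Gpx1 was at 294, 219, 254 and 227 CPM, a log2 change of -0.29 (95% interval -0.66 to 0.08, limma adjusted p 0.699). Without PAN rat 4 that change was -0.13.

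Hmox1 had the largest value with GQ-16, a log2 change of -0.55 (95% interval -1.13 to 0.03, limma adjusted p 0.628) from 7.47 ± 5.09 to 4.22 ± 0.622 CPM (SD, n = 4). Without PAN rat 1 it was -0.19, smaller in size than the -0.34 of Gpx1 in the same fit. With pioglitazone the change was -0.13 (95% interval -0.70 to 0.45), and 0.23 without PAN rat 1, which turns the direction. For Nfe2l2 the change was -0.01 with pioglitazone (95% interval -0.30 to 0.28) and 0.06 with GQ-16 (95% interval -0.23 to 0.35). After median-ratio scaling the GQ-16 value was 0.19 (95% interval 0.01 to 0.36, unadjusted p 0.0377, limma adjusted p 0.705), with overlapping rats. Keap1 had -0.12 and -0.05, Nqo1 -0.02 and -0.10, Gclc -0.27 and -0.20 with pioglitazone and with GQ-16. For Gclm the values were -0.12 and -0.18, for Txnrd1 -0.21 and -0.23, and for Sod2 -0.18 and -0.07. The limma adjusted p of these 7 genes ran from 0.729 to 0.99, and no drug group was clear of the PAN rats in any of them.

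None of the 83 pathway genes passed against PAN with either drug, and at an unadjusted p under 0.05 there were 4 with pioglitazone and 7 with GQ-16, beside 495 and 1094 of all 13222 genes. The gene of each list with the smallest p was named whatever its value. With pioglitazone these were Sqstm1 (-0.33), Glrx (-0.51), Txnrd3 (-0.37), Tkt (-0.20), Tfrc (-0.33), Sod3 (-0.42), Osgin1 (-0.57) and Ncf1 (-0.79), as log2 changes with a limma adjusted p of 0.916 each. All 8 were below PAN. With GQ-16 they were Bach1 (-0.29), Glrx (-0.43), Prdx4 (-0.24), Me1 (-0.52), Slc40a1 (-0.29), Pon2 (-0.17), Abcc3 (-0.37) and Cybb (-0.88), with limma adjusted p from 0.475 to 0.806. Sqstm1, the p62 gene, was at 399, 390, 383 and 405 CPM in PAN and at 256, 340, 306 and 367 CPM with pioglitazone. All pioglitazone rats were below all PAN rats, as for 2.36% of all genes, and the difference did not pass.

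GQ-16 and pioglitazone, 1 pair of agonists, were compared directly, with doses not given. None of the 9 genes passed, beside 0% of all genes (786 genes were under an unadjusted p of 0.05, none of them among the 9, and voom called 0). Hmox1 differed most, at 4.38, 4.83, 3.35 and 4.31 CPM with GQ-16 and 6.80, 4.96, 6.27 and 5.97 CPM with pioglitazone. All GQ-16 rats were below all pioglitazone rats, as for 1.94% of all genes. The log2 difference, GQ-16 minus pioglitazone, was -0.42 (95% interval -1.002 to 0.15, limma adjusted p 0.999). After median-ratio scaling it was -0.38 and the rats overlapped. Gpx1 was higher with GQ-16 by 0.19 (95% interval -0.19 to 0.56), and the other 7 genes differed by -0.08 to 0.10. The widest of those 7 intervals, for Nqo1, ran from -0.62 to 0.45 and the narrowest, for Nfe2l2, from -0.22 to 0.36. Intervals of this width leave room for unlike and for like action.

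Among pathway genes none passed between the drugs. Bach1, the repressor that competes with NRF2 at heme-responsive genes such as Hmox1, was 15.4 ± 2.27 CPM with GQ-16 and 19.97 ± 1.58 CPM with pioglitazone (SD, n = 4), a log2 difference of -0.36 (unadjusted p 0.00603, limma adjusted p 0.724) with no overlap. Pir was 8.24 ± 0.778 and 11.7 ± 1.42 CPM, a log2 difference of -0.46 (unadjusted p 0.00333, limma adjusted p 0.724), also with no overlap. Of all genes 1.94% were separated in this way, with GQ-16 lower. Bach1 and Pir were named as the genes of their lists with the smallest p. Of the genes with the smallest p in the other 6 lists, Txnrd3 (0.30), Tfrc (0.30) and Ccs (0.15) were higher with GQ-16, and Abcc1 (-0.27), Me1 (-0.28) and Nos3 (-0.34) were lower, with limma adjusted p from 0.87 to 0.999.

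Set against control, with the same control rats for both, neither drug group had a called gene among the 9. The background was 4.98% of all genes with pioglitazone and 0.151% with GQ-16. At an unadjusted p under 0.05 there were 1 of 9 with pioglitazone, Hmox1, and 0 of 9 with GQ-16, beside 3767 and 3165 of all genes, and voom called 0 of 9 in both. After median-ratio scaling there were 3 of 9 with pioglitazone, Nfe2l2, Gpx1 and Sod2, all lower than control and Hmox1 not among them, and 1 of 9 with GQ-16, Gpx1, also lower. The counts over all genes were then 2732 and 3173. The medians were 0.02 with pioglitazone and 0.09 with GQ-16, beside 0.21 and 0.17 for all genes. After median-ratio scaling they were -0.20 and -0.09, beside 0.01 and 0.004.

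Hmox1 with pioglitazone was above control in all rats, a separation seen for 14.1% of all genes, with a log2 change of 0.63 (95% interval 0.05 to 1.20, limma adjusted p 0.152). After median-ratio scaling the change was 0.46 and the rats remained apart. Gpx1 with pioglitazone was below control, with a log2 change of -0.37 (limma adjusted p 0.178) and of -0.59 after median-ratio scaling (95% interval -0.94 to -0.24, limma adjusted p 0.0675), where all 4 pioglitazone rats were below all control rats, as for 4.67% of all genes. With GQ-16 Gpx1 had a log2 change of -0.18 against control (limma adjusted p 0.511) and of -0.36 after median-ratio scaling, again with all rats below control, as for 5.5% of all genes. With GQ-16 no gene of the 9 was clear of the control rats as deposited, where 6.01% of all genes were.

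Of the 83 pathway genes 3 rose and none fell with pioglitazone against control, beside 4.7% of all genes called higher: Gpx7 by 0.67 (limma adjusted p 0.0205), Prdx4 by 0.68 (limma adjusted p 0.0204) and Pir by 0.97 (limma, SE 0.13, adjusted p 0.00275). Pir was at 11.9, 12.4, 9.65 and 12.8 CPM with pioglitazone, clear of the control rats on both scales. As deposited, 14.1% of all genes were separated in this way in either direction. Without control rat 2 or 3, or without pioglitazone rat 2 or 4, the count of called pathway genes fell to 1. It rose to 11 without control rat 1 and to 5 without control rat 4. The count over all genes was 659 with all rats, 48, 65, 57 and 172 in the first 4 of these fits and 1660 and 955 in the last 2. After median-ratio scaling, where 2.85% of all genes were called, Gpx7 and Pir were, Prdx4 was not (0.48, limma adjusted p 0.0614), and Xdh, the xanthine oxidoreductase gene, fell by 0.64 (limma adjusted p 0.049). With GQ-16 none of the 83 passed; Pir was 0.52 above control (limma adjusted p 0.0883), Prdx4 0.65 (limma adjusted p 0.0733) and Gpx7 0.53 (limma adjusted p 0.0925). Without control rat 1, 9 genes were called with GQ-16, these 3 among them, while the count over all genes went from 20 to 1572.

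Several of the 9 genes peaked in the same rat. In the PAN group PAN rat 4 was the highest for Gclc, Gclm, Txnrd1, Gpx1 and Sod2, and it was the highest of all 16 rats for the last 4 of these on both scales. Its summed proximal tubule markers were 13062 CPM, the highest of all 16 rats, against 3313, 5981 and 6796 CPM in PAN rats 1 to 3. PAN rat 4 was also library number 6, while PAN rats 1 to 3 were numbers 25, 31 and 32. In the pioglitazone group rat 3 was the highest for the same 5 genes on both scales, and its tubule sum was 10998 CPM against 3407, 5887 and 3757 CPM. In the control group rat 1 had the highest tubule sum, 11528 CPM, and the highest value of 6 genes as deposited and of 2 after median-ratio scaling. In the GQ-16 group rat 1 had the highest sum, 8881 CPM, and the highest value of 2 genes as deposited and of 4 after scaling. GQ-16 rat 4, which did not have the highest tubule sum, was the highest of all 16 rats for Keap1, Nqo1 and Gclc on both scales. That rat was library number 27, while GQ-16 rats 1 to 3 were numbers 13 to 15. The tubule sums of PAN and control rats had an exact permutation p of 0.514 (two-sided), and none of 10 tubule markers was called in any of the 6 comparisons. How far tubule content or library number set these peaks was not tested.

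Nfe2l2, Keap1, Hmox1 and Nqo1 had their highest PAN value as deposited in PAN rat 1, the rat with the lowest tubule sum and the highest macrophage and leukocyte sum. After median-ratio scaling this held for Nfe2l2, Hmox1 and Nqo1. As deposited, the control rat with the highest macrophage and leukocyte sum also had the highest Hmox1 of its group. The pioglitazone and GQ-16 rats with the highest sum did not. After scaling the 2 peaks fell in the same rat in all 4 groups. At the other end, control rat 2, with the largest mitochondrial share of reads (39.6%), was the lowest of all 16 rats for Nfe2l2, Keap1, Hmox1, Gclc and Txnrd1 as deposited, and for none of the 9 after median-ratio scaling.

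**Figure D4:**
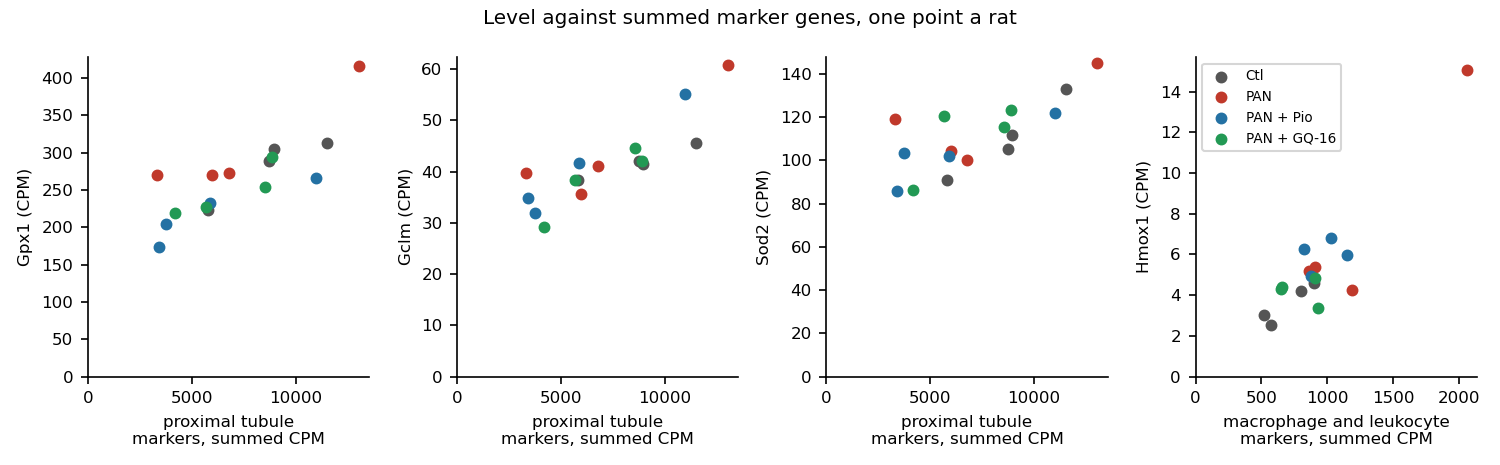
Level of Gpx1, Gclm and Sod2 against the summed proximal tubule markers, and of Hmox1 against the summed macrophage and leukocyte markers, in CPM, 1 point a rat, coloured by group. The rat with the highest sum in each panel, PAN rat 4 at 13062 CPM or PAN rat 1 at 2060 CPM, also has the highest level of the gene.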

How the data were processed

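The authors sequenced stranded poly(A) libraries of sieved glomeruli on 2 lanes, per the labels' protocols and design text. The deposited values are log2 CPM, the reads of a gene relative to all reads of its library, and the submitters' processing notes name HISAT2, Subread, featureCounts, limma and the build Rnor_6.0, without roles or versions. In every library 100% of values gave whole reads (tolerance 0.1), with 0.5 added to each count and 1 to each total. The labels do not state that the 4 samples of a group are 4 animals; they are called rats here, and p-values measure only the spread between these samples, which may be technical.

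From the deposited values log2(CPM + 1) was fitted in limma 3.58.1 (R 4.3.3), letting the variance follow the mean level, over all 13222 genes, 16 libraries and 4 groups (12 residual degrees of freedom), with Benjamini-Hochberg adjustment and a threshold of 0.05. All 6 contrasts between groups were tested. Library measures were compared by exact permutation (SciPy 1.17.1). The fit was tested on simulated data. The count test that had been planned was not run, since the table holds log2 values; voom on the recovered reads with median-ratio scaling was added after seeing the data, as was a fit on libraries numbered 15 or lower. Other alternatives were median-ratio scaling, a pseudocount of 0.1, a mean of at least 10 CPM, library number as a covariate and each rat left out. At these depths 3 reads come to 0.137 to 0.225 CPM.

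The 10 genes and all lists were chosen with earlier results of these data known. All of the 10 genes in the table are named whatever their values; from each pathway list and comparison up to 3 called genes with the largest absolute log2 change are named, or the 1 gene with the smallest unadjusted p where none was called. Other genes were named after their values were seen. Of the pathway lists, Slc7a11, Gpx4, Gsta3, Gstm2, Mgst2, Chac1, Pgd, Fth1, Cbr1, Aldh3a1 and Aox1 are among the genes not analysed here, and some results are not reported here. Promoter sequences come from RefSeq's GRCr8 table; no gene coordinates on Rnor_6.0 were used.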

Additional observations from a re-analysis of the deposited data

Results flagged for a closer look

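Within 36 sets of 4 rats (9 genes in 4 groups), 2 held a rat whose gap to the nearest other rat took a larger part of the range than Dixon's critical value for 4 values, where chance gives 1.8 such sets. Hmox1 in PAN rat 1 was at 15.1 CPM, on 284 reads, against 4.26 to 5.38 CPM in the other PAN rats, and at 12.97 CPM against 3.91 to 4.92 CPM after median-ratio scaling. On the log2(CPM + 1) scale used for the tests its gap was 0.827 of the range, just under the critical value. Gpx1 in PAN rat 4 was at 416 CPM, against 270 to 272 CPM in the other PAN rats, and at 392.5 CPM against 232 to 249 CPM after median-ratio scaling. PAN rat 1 had the highest macrophage and leukocyte marker sum of the 16 rats, and PAN rat 4 the highest proximal tubule marker sum.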

How the results depend on the processing

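No paired analysis was possible because the labels number the rats without tying those of different groups together. Among 54 log2 changes of the 9 genes, the sign turned in 17 with median-ratio scaling and in 17 with voom, which used the same scaling. It turned in 9 with library number as a covariate and in 5 of 27 with libraries numbered 15 or lower. It turned in 0 with a pseudocount of 0.1 and in 0 of 42 with a mean of at least 10 CPM, which leaves out Hmox1 and Nqo1. The cause was not tested.
For PAN against control, values with median-ratio scaling and voom were -0.27 and -0.28 for Nfe2l2, -0.25 and -0.25 for Gclm, -0.072 and -0.071 for Txnrd1, -0.20 and -0.19 for Gpx1 and -0.22 and -0.21 for Sod2. The covariate gave Nfe2l2 -0.050. For pioglitazone against PAN, they were 0.072 and 0.075 for Nfe2l2 and 0.055 and 0.031 for Nqo1. The covariate gave Nfe2l2 0.040, Keap1 0.010 and Nqo1 0.27. For GQ-16 against PAN, they were 0.077 and 0.079 for Keap1, 0.0042 and 0.030 for Nqo1 and 0.056 and 0.045 for Sod2. The covariate gave Keap1 0.085 and Nqo1 0.19. For GQ-16 against pioglitazone, they were 0.019 and 0.017 for Txnrd1. Libraries numbered 15 or lower gave Gclc -0.011. For pioglitazone against control, they were -0.20 and -0.21 for Nfe2l2, -0.13 and -0.13 for Gclc and -0.20 and -0.20 for Txnrd1. The covariate gave Nfe2l2 -0.010 and Gclm 0.023, and libraries numbered 15 or lower gave Nfe2l2 -0.017 and Gclm 0.042. For GQ-16 against control, they were -0.089 and -0.092 for Nfe2l2, -0.0072 and -0.0052 for Gclc and -0.16 and -0.17 for Sod2. The covariate gave Txnrd1 0.021, and libraries numbered 15 or lower gave Gclc -0.00070 and Sod2 -0.028.
Leaving out each rat in turn turned the sign in 51 of 432 fits, in 26 of the 54 results. For PAN against control the values ran from -0.082 to 0.10 for Nfe2l2, -0.11 to 0.14 for Gclm, -0.050 to 0.16 for Gpx1 and -0.022 to 0.18 for Sod2. For pioglitazone against PAN they ran from -0.071 to 0.097 for Nfe2l2, -0.30 to 0.23 for Hmox1, -0.16 to 0.10 for Nqo1 and -0.27 to 0.044 for Gclm. For GQ-16 against PAN they ran from -0.00014 to 0.17 for Nfe2l2, -0.12 to 0.031 for Keap1, -0.28 to 0.13 for Nqo1 and -0.14 to 0.046 for Sod2. For GQ-16 against pioglitazone they ran from -0.0041 to 0.16 for Keap1, -0.26 to 0.15 for Nqo1, -0.090 to 0.26 for Gclc, -0.17 to 0.084 for Gclm and -0.10 to 0.083 for Txnrd1. For pioglitazone against control they ran from -0.073 to 0.094 for Nfe2l2, -0.052 to 0.21 for Gclc, -0.22 to 0.042 for Gclm, -0.098 to 0.099 for Txnrd1 and -0.18 to 0.0032 for Sod2. For GQ-16 against control they ran from -0.0027 to 0.17 for Nfe2l2, -0.00070 to 0.35 for Gclc, -0.12 to 0.10 for Txnrd1 and -0.073 to 0.13 for Sod2.
Of the 9 genes, 1 was called in PAN against control with median-ratio scaling and with voom, and 0 to 2 when a rat was left out (Hmox1 or Keap1; without control rats 1 or 4 or PAN rats 2 or 4). Of the pathway genes, 7 were called in PAN against control with median-ratio scaling, 7 with voom and 2 with the covariate, beside 1141, 1047 and 393 of all genes. When a rat was left out 4 to 27 were called, beside 838 to 4964 of all 13222 genes. For pioglitazone against control 1 to 11 were called when a rat was left out, beside 48 to 1660 of all genes. For GQ-16 against control 0 to 9 were called, beside 0 to 1572 of all genes. The mitochondrial difference ran from -21.2 to -12.7 percentage points when a rat was left out, where the exact test cannot reach 0.05. Counts of 40 to 284 reads limit the precision of Hmox1 and Nqo1.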

Other observations

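Markers of 5 further cell types were looked at beside the NRF2 genes. Between PAN and control 7 of 8 mesangial and smooth muscle markers rose (limma), and their sum was 2055 ± 525 CPM in PAN and 526 ± 233 CPM in control rats (SD, n = 4; exact permutation p 0.0286, two-sided, the smallest that 4 against 4 allows). Of 7 markers of the distal nephron and collecting duct 4 fell (limma), with a sum of 688 ± 253 CPM in PAN and 1217 ± 305 CPM in control rats (SD, n = 4; exact permutation p 0.0571, two-sided). Of the endothelial markers 1 of 7 rose, of the parietal epithelial markers 1 of 4, and of the erythroid markers 0 of 6 passed in either direction. Beside these counts, 21.7% of all genes were called higher in PAN and 0.522% lower.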
